A study of Mus musculus with 12 samples.

Results

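The 34 genes described here encode enzymes of cholesterol and fatty acid synthesis and the proteins that regulate the sterol branch. They were listed by mouse symbol for the known roles of their proteins, with earlier results of these data known, and were found among the 55416 IDs of the count tables. All 34 were among the 17702 genes tested, with between 234 and 42518 reads each per library. By where the protein works they form 5 classes: 17 enzymes anchored in the endoplasmic reticulum (ER) membrane, 5 ER membrane regulators, the membrane-associated enzyme Lss, 10 cytosolic or peroxisomal enzymes, and the soluble sterol carrier Stard4.

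The cells were E14Tg2a.4, a mouse embryonic stem cell line, grown in medium with fetal serum and leukemia inhibitory factor. They make Rpl31, a protein of the large ribosomal subunit, fused to FLAG, a TEV site and an AviTag. ALIBi, a proximity biotinylation system, was directed to the ER, and the ribosomes it tagged were pulled down and released for poly(A) RNA sequencing. The 4 groups, with 3 biological replicates each, were ER-bound RNA from cells given an siRNA against Lsg1, ER-bound RNA from cells given a scramble siRNA, and whole-cell RNA from each of these, Lsg1 siRNA and scramble siRNA. All 4 groups share the tagged line and the ER-directed labelling, and whole-cell RNA was taken from the lysate before the pulldown. Whether the tagged line is 1 clone is not given in the sources used here. The comparisons ask which mRNAs ER-labelled ribosomes carry, and whether knockdown of Lsg1, a GTPase of late 60S ribosomal subunit maturation, alters that.

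Cholesterol synthesis crosses a compartment border. Soluble enzymes turn acetyl-CoA into farnesyl diphosphate, and squalene synthase and the enzymes after it work in the ER membrane. Fatty acid synthesis has the same split, since palmitate is made by cytosolic enzymes and then lengthened and desaturated by ER membrane enzymes. The sterol regulators SCAP and the INSIG proteins hold the SREBP transcription factor precursors in the ER membrane until sterols fall. Proteins of the ER membrane are generally made by ribosomes docked at the ER, and cytosolic enzymes by free ribosomes.

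The libraries held between 38092178 and 56522114 reads assigned to genes. Lsg1 itself read 35.4, 42.5 and 52.5 CPM (reads scaled to a common library size, so that they are shares of a library) in ER-bound RNA with Lsg1 siRNA, against 143, 149 and 151 CPM in ER-bound RNA with scramble siRNA. In whole-cell RNA it read 83.5, 96.7 and 114 CPM with Lsg1 siRNA, against 136, 144 and 149 CPM with scramble siRNA, so the target was lower in all 6 knockdown libraries. All 8 embryonic stem cell markers were present, with summed levels of 7172 to 8039 CPM in ER-bound RNA and 6552 to 6728 CPM in whole-cell RNA, while the 6 primitive endoderm markers together summed to 7.31 to 9.91 CPM. Of 7 fibroblast or feeder markers, Lum was at 0 in every library and the sum was mostly Thy1, at 45.4 to 55.8 CPM in ER-bound RNA and 24.9 to 27.9 CPM in whole-cell RNA. An RNA with the ID ENSMUSG00000119584, for which no name was used here, reached 18469 CPM in ER-bound scramble replicate 3 and 15604 CPM in whole-cell Lsg1 replicate 3, against at most 4143 CPM in the other libraries. CPM values are shares of a library, so less of an mRNA per cell and fewer cells that make it cannot be told apart.

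In the ratio of ER-bound to whole-cell RNA of scramble cells the pathway divided by compartment. None of the 12 libraries holds RNA of all ribosomes or of a pulldown without ER labelling. A higher ratio can thus come from ER location, ribosome loading or the pulldown, and these cannot be told apart. A gene is called here when the Benjamini-Hochberg adjusted p of edgeR's quasi-likelihood test over all 17702 genes is below 0.05. Of the 17 ER membrane enzymes, 16 were higher in ER-bound than in whole-cell RNA, and the median log2 fold of the class was 0.48. Of the 10 cytosolic or peroxisomal enzymes, 6 were lower and 3 higher, with a median log2 fold of -0.27. Over all 34 genes 22 were higher, 10 lower and 2 not called. Of all genes tested 29.8% were called higher, 29.1% lower and 58.9% either way, with a median log2 fold of 0.03. All genes tested include many with low counts, and with a filter at 2 CPM in 3 libraries the shares were larger. There 4661 of 12578 genes were higher and 4662 lower. Scaled by library totals alone, 6438 genes were higher and 4144 lower, against 5279 and 5143 with the trimmed mean of M values (TMM) used throughout, and the class medians were 0.56 and -0.19. The classes were described by counts and medians only, and no test of the class difference was made. Groups without overlap are pointed out below for single genes, and their share over all genes was not counted.

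The coding sequences of the classes differ in a simple measure, and a few stretches are printed here to show what it counts. Codons with U at the second base encode phenylalanine, leucine, isoleucine, methionine and valine, which are hydrophobic. For each gene the stretch of 19 codons (57 bases) with most such codons was taken from the GENCODE M21 coding sequence on GRCm38. Letters are those of the DNA sense strand read 5′ to 3′, so U appears as T, and capitals mark a T at the second base of a codon. The first 4 stretches, with 13 such codons each and 15 in Insig2, come from ER membrane proteins whose mRNAs were higher on ER-labelled ribosomes: Ebp (chrX:8185688-8185744, - strand, exon 5 of 5), Elovl1 (chr4:118431281-118431423, + strand, exons 5 and 6 of 8), Fads2 (chr19:10088995-10089051, - strand, exon 3 of 12) and Insig2 (chr1:121319703-121319759, - strand, exon 2 of 6).
Ebp: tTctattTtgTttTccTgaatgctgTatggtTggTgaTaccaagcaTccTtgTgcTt
Elovl1: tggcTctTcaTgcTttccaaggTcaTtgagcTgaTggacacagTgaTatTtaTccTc
Fads2: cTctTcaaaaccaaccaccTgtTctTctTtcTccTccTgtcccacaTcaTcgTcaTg
Insig2: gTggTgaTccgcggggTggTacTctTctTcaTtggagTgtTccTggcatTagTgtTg
The stretches of the SREBP precursors Srebf1 (chr11:60203886-60203942, - strand, exon 9 of 19) and Srebf2 (chr15:82179401-82179457, + strand, exon 9 of 19) are shown because, with 12 and 14 such codons, they lie far into the coding sequence and belong to mRNAs that were lower on ER-labelled ribosomes.
Srebf1: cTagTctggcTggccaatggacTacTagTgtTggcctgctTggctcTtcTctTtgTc
Srebf2: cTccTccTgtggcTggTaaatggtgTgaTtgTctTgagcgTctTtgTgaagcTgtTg
The stearoyl-CoA desaturase paralogs Scd1 (chr19:44406518-44406574, - strand, exon 2 of 6) and Scd2 (chr19:44295099-44295155, + strand, exon 2 of 6) are shown as a matched pair with 13 and 11 such codons.
Scd1: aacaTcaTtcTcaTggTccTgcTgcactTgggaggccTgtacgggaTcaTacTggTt
Scd2: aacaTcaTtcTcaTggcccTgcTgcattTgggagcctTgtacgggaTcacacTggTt
The last 4 stand for proteins that do not span the membrane, with 9 to 11 such codons: Lss (chr10:76533633-76535596, + strand, exons 3 and 4 of 22), Hmgcs1 (chr13:119702552-119702608, + strand, exon 5 of 10), Mvk (chr5:114445465-114446200, + strand, exons 2 and 3 of 11) and Fasn (chr11:120818155-120818468, - strand, exons 10 and 11 of 43). Where a stretch lies in a pair of exons, its coordinates span the intron between them.
Lss: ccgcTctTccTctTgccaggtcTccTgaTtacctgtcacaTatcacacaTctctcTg
Hmgcs1: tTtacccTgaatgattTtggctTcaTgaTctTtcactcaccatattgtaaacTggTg
Mvk: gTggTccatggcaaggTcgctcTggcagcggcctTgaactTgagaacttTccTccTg
Fasn: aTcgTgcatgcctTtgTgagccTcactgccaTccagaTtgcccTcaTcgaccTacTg

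The ER membrane enzymes of sterol synthesis run from squalene to cholesterol. Squalene synthase (Fdft1) averaged 128 ± 4.90 CPM in ER-bound RNA and 91.6 ± 0.509 CPM in whole-cell RNA of scramble cells (SD, n = 3 each, as for all means here), a log2 fold of 0.48. Squalene epoxidase (Sqle) averaged 135 ± 1.01 CPM in ER-bound RNA and 102 ± 3.39 CPM in whole-cell RNA, a log2 fold of 0.41. Both were called higher, as were 7 of the 8 enzymes that follow lanosterol, beside 29.8% of all genes tested. The lanosterol demethylase Cyp51 had a log2 fold of 0.35, the methylsterol oxidase Msmo1 0.45, the sterol dehydrogenase Nsdhl 0.39, the sterol reductase Tm7sf2 0.63 and the last-step reductase Dhcr7 0.57.

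The sterol isomerase Ebp stood highest of all 34 genes. It read 41.2, 40.2 and 38.1 CPM in the ER-bound scramble libraries, against 17.9, 19 and 20.3 CPM in the whole-cell scramble libraries. The groups did not overlap, and the ER-bound mean was 209% of the whole-cell mean (log2 fold 1.06 ± 0.05 SE, edgeR with Benjamini-Hochberg adjusted p = 3.39e-12). The sterol desaturase Sc5d read 41.9, 38.5 and 39.9 CPM in ER-bound RNA, against 26.7, 27.1 and 25.3 CPM in whole-cell RNA. All 3 ER-bound values lay above all 3 whole-cell values (log2 fold 0.61 ± 0.04 SE, edgeR with Benjamini-Hochberg adjusted p = 5.22e-10). The ketosteroid reductase Hsd17b7 was the exception in the class. It read 10.1, 10.5 and 10.5 CPM in ER-bound RNA, against 10.3, 10.6 and 10.1 CPM in whole-cell RNA. These values overlapped, with a log2 fold of 0.00 ± 0.06 SE that was not called.

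The ER membrane enzymes that lengthen and desaturate fatty acids were called higher in all 7 cases, beside 29.8% of all genes tested. Elovl1, an elongase of very long chains, read 23.9, 21.3 and 20.5 CPM in ER-bound scramble libraries, against 11.3, 11.4 and 12.6 CPM in whole-cell scramble libraries. Its groups lay far apart relative to their spread (log2 fold 0.90 ± 0.06 SE, edgeR with Benjamini-Hochberg adjusted p = 3.77e-10). The fatty acid desaturase Fads2 read 86.4, 82.4 and 87.1 CPM in ER-bound RNA, against 54.9, 56.8 and 55.3 CPM in whole-cell RNA. It was higher in all 3 lysates (log2 fold 0.62 ± 0.04 SE, edgeR with Benjamini-Hochberg adjusted p = 1.50e-10). Its partner desaturase Fads1 had a log2 fold of 0.53, the polyunsaturated chain elongase Elovl5 0.52, and Elovl6, which extends palmitate, 0.34. Exons of Elovl1, Elovl6, Fdft1, Cyp51, Scap, Srebf1, Lss, Hmgcs1 and Idi1 overlap a gene on the opposite strand and those of Tm7sf2 overlap Vps51 on the same strand. The strand setting of the counts is not given in the sources used here, so reads of these genes may be mixed with those of their neighbours.

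The stearoyl-CoA desaturases, which make monounsaturated fatty acids, had the smallest log2 folds among the 16 ER membrane enzymes called. Scd2 was the most abundant of the 34 genes per length, at a mean of 147 CPM per kb of the longest transcript in ER-bound RNA and 121 CPM per kb in whole-cell RNA. Scd2 had a log2 fold of 0.27 and Scd1 of 0.24. About 4.01% of the 50-base words of Scd2 and 4.66% of those of Scd1 also occur in transcripts of other genes, most often Scd3 for Scd1 and Scd1 for Scd2.

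**Figure D1:**
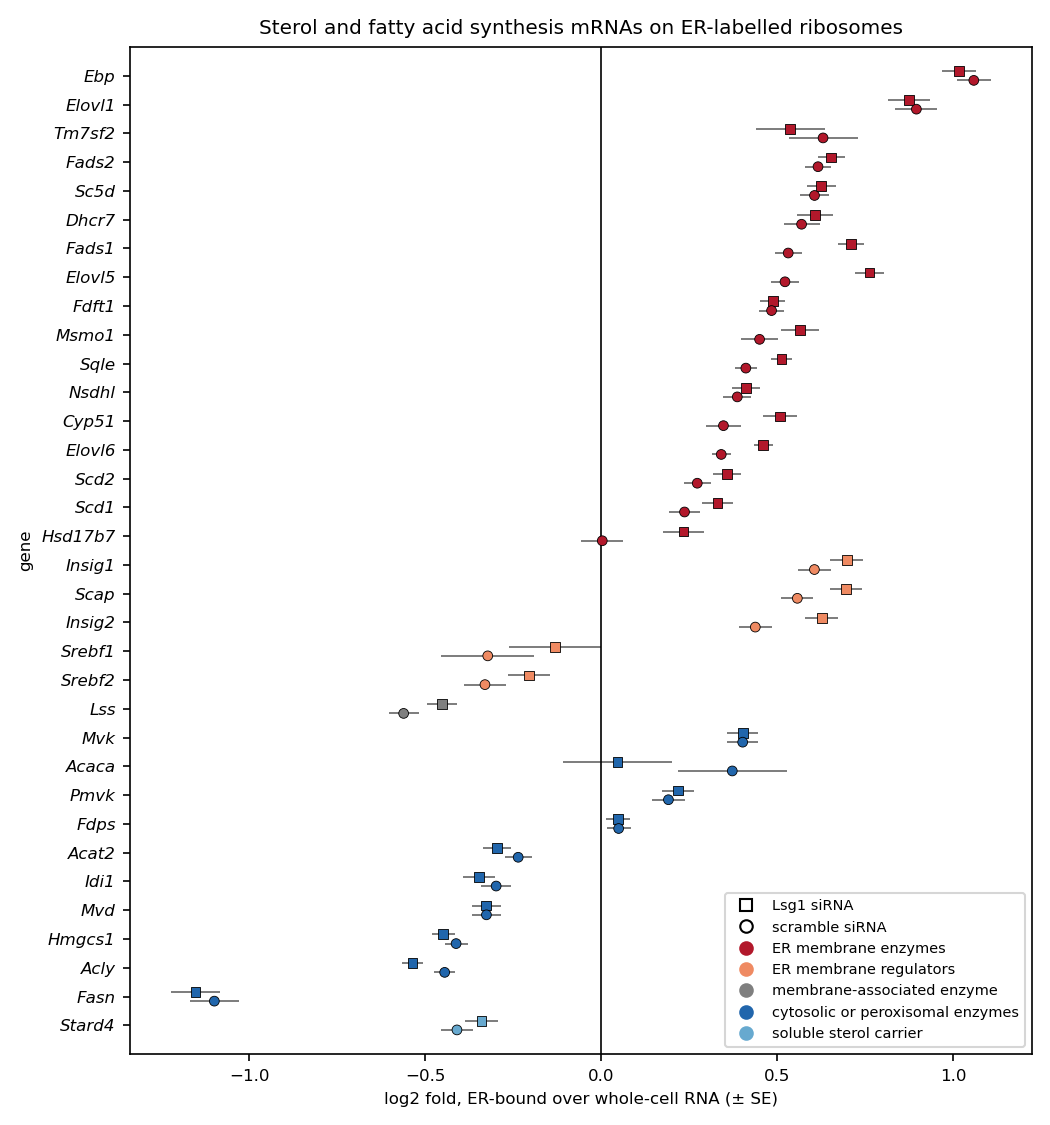
Log2 fold of ER-bound over whole-cell RNA for each of the 34 genes (horizontal axis), with Lsg1 siRNA as squares, scramble siRNA as circles and bars of ± SE, coloured by the class of the protein. The ER membrane enzymes lie to the right of 0 apart from Hsd17b7 with scramble siRNA, and 6 of the 10 cytosolic or peroxisomal enzymes, Lss and Stard4 lie to the left.

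The 5 regulators divided. Insig1, an ER retention protein for the SCAP and SREBP complex, read 81.9, 78.95 and 78.6 CPM in ER-bound scramble libraries, against 53.9, 50.3 and 53.2 CPM in whole-cell scramble libraries, and its paralog Insig2 27.6, 26.4 and 25.5 CPM in ER-bound RNA, against 19.5, 20.2 and 19.1 CPM in whole-cell RNA. Scap, the sterol-sensing escort, read 53.9, 58.02 and 60.7 CPM in ER-bound RNA, against 39.5, 37.6 and 40.1 CPM in whole-cell RNA. All 3 genes were higher without overlap, with log2 folds of 0.61 for Insig1, 0.44 for Insig2 and 0.56 for Scap (edgeR with Benjamini-Hochberg adjusted p = 2.92e-09, 2.38e-07 and 5.30e-09, in that order).

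The SREBP precursors went the other way from the proteins that hold them. Srebf2, the main activator of sterol genes, read 190.3, 241 and 235 CPM in ER-bound scramble libraries, against 279.8, 277 and 281 CPM in whole-cell scramble libraries. It was called lower (log2 fold -0.33 ± 0.06 SE, edgeR with Benjamini-Hochberg adjusted p = 9.51e-05). Srebf1, the activator of fatty acid genes, read 34.1, 61.1 and 59.6 CPM in ER-bound RNA, against 63.7, 62.97 and 66.6 CPM in whole-cell RNA (log2 fold -0.32 ± 0.13 SE, edgeR with Benjamini-Hochberg adjusted p = 0.044). For both genes ER-bound replicate 1 was the lowest library, and for Srebf1 it decided the size of the difference. Without that library the log2 fold was -0.10 for Srebf1 and -0.24 for Srebf2, and both were still called. Among 7448 genes with a mean above 20 CPM, Srebf1 ranked 21 from the lowest in its deviation in that library. Other members were low there too, with log2 deviations from replicates 2 and 3 of -0.41 for Acaca, -0.29 for Fasn and -0.14 for Scap. Over the 459 of these genes with a longest transcript above 8 kb the median deviation was -0.14, against -0.0047 for the 6982 with shorter ones, and its part in the values of the Srebf genes and Scap was not tested. Srebf1 lost its call with any 1 of the 3 whole-cell scramble libraries left out (log2 fold -0.35 to -0.31), with DESeq2 (-0.34) and with library totals (-0.25).

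Lss, which closes squalene epoxide to lanosterol, sits on the ER membrane without spanning it. It read 46.1, 49.4 and 51.6 CPM in ER-bound scramble libraries, against 69.5, 72.04 and 75.3 CPM in whole-cell scramble libraries. Unlike the ER membrane enzymes before and after it in the pathway, it was lower without overlap (log2 fold -0.56 ± 0.04 SE, edgeR with Benjamini-Hochberg adjusted p = 2.09e-09). Stard4, which carries sterols through the cytosol, read 29.5, 29.96 and 31.96 CPM in ER-bound RNA, against 41.8, 39.6 and 40.05 CPM in whole-cell RNA. It was lower as well (log2 fold -0.41 ± 0.05 SE, edgeR with Benjamini-Hochberg adjusted p = 4.28e-07).

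Among the cytosolic enzymes, fatty acid synthase (Fasn) was the lowest of the 34 genes on ER-labelled ribosomes. It read 243, 288 and 307 CPM in ER-bound scramble libraries, against 578, 589 and 628 CPM in whole-cell scramble libraries. The ER-bound mean was 46.7% of the whole-cell mean (log2 fold -1.10 ± 0.07 SE, edgeR with Benjamini-Hochberg adjusted p = 1.90e-10). ATP citrate lyase (Acly), which supplies cytosolic acetyl-CoA, read 351, 356 and 367 CPM in ER-bound RNA, against 477, 486 and 499.6 CPM in whole-cell RNA. Its groups did not overlap and its ER-bound values were lower (log2 fold -0.44 ± 0.03 SE, edgeR with Benjamini-Hochberg adjusted p = 4.71e-10). Hmgcs1, the HMG-CoA synthase of the mevalonate route, read 121, 125 and 124 CPM in ER-bound RNA, against 161, 163 and 169 CPM in whole-cell RNA. It was lower too (log2 fold -0.41 ± 0.03 SE, edgeR with Benjamini-Hochberg adjusted p = 3.85e-09).

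The other 3 enzymes called lower had smaller log2 folds. These were -0.33 for mevalonate diphosphate decarboxylase (Mvd), -0.30 for isopentenyl diphosphate isomerase (Idi1) and -0.24 for acetoacetyl-CoA thiolase (Acat2). Counts of Acat2 and Idi1 are uncertain, since 45.9% of the 50-base words of Acat2 also occur in its neighbour family member Acat3 and 21.3% of those of Idi1 in Gm13502. Farnesyl diphosphate synthase (Fdps), the last soluble enzyme before squalene, averaged 68.1 ± 1.29 CPM in ER-bound RNA and 65.8 ± 2.72 CPM in whole-cell RNA and was not called. Of its 50-base words 86.4% occur elsewhere, mostly in the overlapping gene Gm43738, the highest such share of the 34, which limits its counts.

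Mevalonate kinase (Mvk), phosphomevalonate kinase (Pmvk) and acetyl-CoA carboxylase (Acaca) were higher on ER-labelled ribosomes, against most of their class. Mvk read 25.98, 25.9 and 25.1 CPM in ER-bound scramble libraries, against 19.4, 19.9 and 19.02 CPM in whole-cell scramble libraries. Its groups did not overlap (log2 fold 0.40 ± 0.04 SE, edgeR with Benjamini-Hochberg adjusted p = 2.43e-07), and the call held in every alternative processing tried. Pmvk read 25.8, 23.5 and 24.4 CPM in ER-bound RNA, against 21.96, 21.03 and 21.6 CPM in whole-cell RNA (log2 fold 0.19 ± 0.05 SE, edgeR with Benjamini-Hochberg adjusted p = 0.00172). Its sign turned with an offset for GC content and transcript length, to a log2 fold of -0.09.

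Acaca rested on a single library. It read 145, 164 and 229.8 CPM in ER-bound scramble libraries, against 137, 137 and 142 CPM in whole-cell scramble libraries. The highest value, in replicate 3, set both the mean and the SD (log2 fold 0.37 ± 0.15 SE, edgeR with Benjamini-Hochberg adjusted p = 0.0473). Without that library the log2 fold was 0.14 and the gene was not called. The call was also lost with any 1 of the 6 whole-cell libraries left out, with DESeq2 or its size factors and with limma-voom, at log2 folds of 0.34 to 0.38. Of the 50-base words of Acaca 52.6% also occur in Gm5182, a further limit on its counts.

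**Figure D2:**
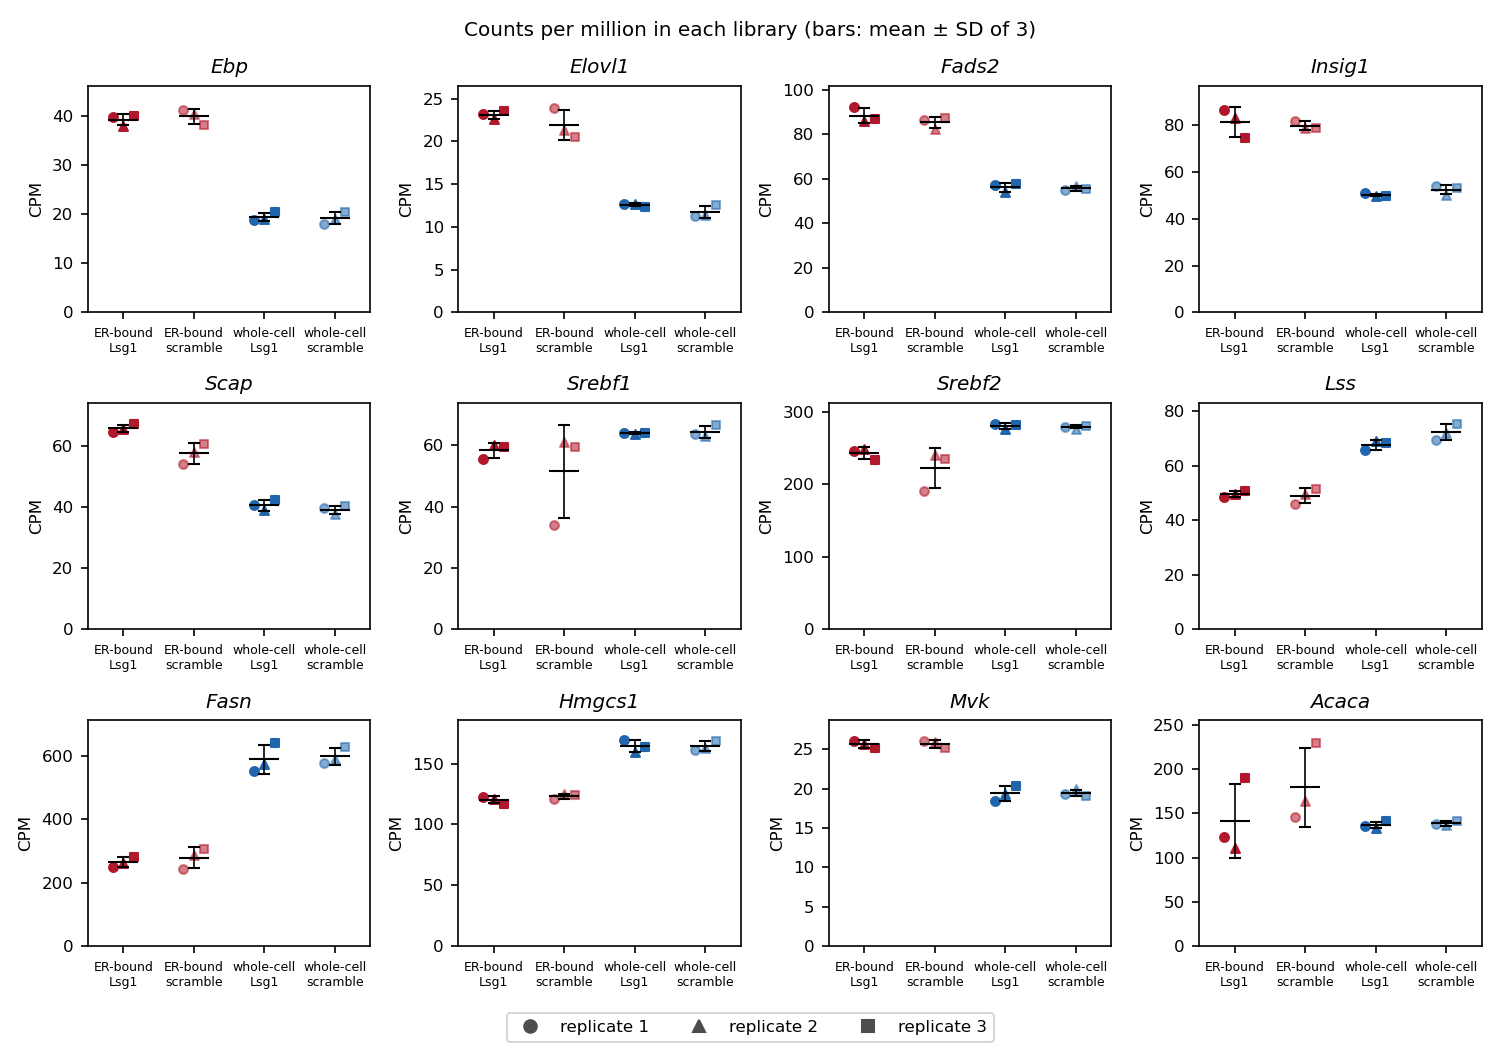
CPM of 12 genes in every library (vertical axes, each from 0) for ER-bound RNA in red and whole-cell RNA in blue, Lsg1 siRNA in full colour and scramble siRNA in pale, with mean ± SD of 3 and the replicate number as the marker shape. Ebp, Elovl1, Fads2, Insig1, Scap and Mvk are higher in the ER-bound libraries, Lss, Fasn and Hmgcs1 lower, and the spread of Srebf1 and Acaca comes from replicate 1 and replicate 3.

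The division held with Lsg1 siRNA. In these cells all 17 ER membrane enzymes were called higher in ER-bound than in whole-cell RNA, with a median log2 fold of 0.54 and a range from 0.23 for Hsd17b7 to 1.02 for Ebp. Of the 10 cytosolic or peroxisomal enzymes 6 were lower and 2, Mvk and Pmvk, were higher, with a median log2 fold of -0.31. In all, 22 of the 34 genes were higher and 9 lower, beside 30.6% higher, 29.8% lower and 60.3% either way among all genes tested. With the filter at 2 CPM, 4627 of 12578 genes were higher and 4820 lower. With library totals alone 6686 of all genes were higher and 4142 lower, against 5412 and 5271.

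Single genes repeated their positions in these separate libraries. Ebp read 39.7, 37.9 and 39.9 CPM in ER-bound Lsg1 libraries, against 18.9, 18.9 and 20.4 CPM in whole-cell Lsg1 libraries. Elovl1 read 23.2, 22.6 and 23.5 CPM in ER-bound RNA, against 12.7, 12.7 and 12.4 CPM in whole-cell RNA. Fads2 read 92.2, 86.05 and 86.7 CPM in ER-bound RNA, against 56.96, 53.95 and 57.7 CPM in whole-cell RNA. None of these groups overlapped, and the ER-bound means were 202%, 183% and 157% of the whole-cell means. Sc5d read 39.9, 37.9 and 38.1 CPM in ER-bound RNA, against 25.2, 24.7 and 25.2 CPM in whole-cell RNA. Hsd17b7, not called in scramble cells, read 11.7, 12.01 and 11.6 CPM in ER-bound RNA, against 9.64, 9.57 and 10.8 CPM in whole-cell RNA. It was called higher here (log2 fold 0.23 ± 0.06 SE, edgeR with Benjamini-Hochberg adjusted p = 0.00226) while the test of the difference between the siRNAs, the interaction, did not call it.

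The regulators again split. Insig1 read 86.7, 83 and 74.4 CPM in ER-bound Lsg1 libraries, against 50.9, 49.7 and 49.9 CPM in whole-cell Lsg1 libraries. Insig2 read 29.5, 29.9 and 27.2 CPM in ER-bound RNA, against 18.5, 18.3 and 19.2 CPM in whole-cell RNA. Scap read 64.5, 65.4 and 67 CPM in ER-bound RNA, against 40.5, 38.9 and 42.4 CPM in whole-cell RNA. These 3 were higher in every lysate, with log2 folds of 0.70, 0.63 and 0.70. Srebf2 read 247, 249 and 234 CPM in ER-bound RNA, against 283, 276 and 282 CPM in whole-cell RNA. It was lower (log2 fold -0.20 ± 0.06 SE, edgeR with Benjamini-Hochberg adjusted p = 0.00584), but lost its call with library totals alone, at a log2 fold of -0.12. Srebf1 read 55.7, 60.2 and 59.4 CPM in ER-bound RNA, against 64.2, 63.7 and 64.1 CPM in whole-cell RNA. Its ER-bound values lay just below the whole-cell values, but it was not called (log2 fold -0.13 ± 0.13 SE, edgeR with Benjamini-Hochberg adjusted p = 0.408). Without ER-bound scramble replicate 1, which enters the shared estimate of the spread, the same difference was called, at a log2 fold of -0.14, as it was with no low-count filter.

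Among the soluble proteins, Fasn read 249.9, 263 and 281 CPM in ER-bound Lsg1 libraries, against 552, 574 and 640.2 CPM in whole-cell Lsg1 libraries. Acly read 322, 329 and 336 CPM in ER-bound RNA, against 471, 467 and 493 CPM in whole-cell RNA. Hmgcs1 read 123, 121 and 117 CPM in ER-bound RNA, against 169, 159 and 164 CPM in whole-cell RNA. All 3 were lower without overlap, with log2 folds of -1.15, -0.54 and -0.45. Lss read 48.5, 49.4 and 50.6 CPM in ER-bound RNA, against 65.5, 69.1 and 68.3 CPM in whole-cell RNA, and Stard4 read 32.1, 30.97 and 29.8 CPM in ER-bound RNA, against 41.8, 37.6 and 38.4 CPM in whole-cell RNA. Both were called lower, at log2 folds of -0.45 and -0.34. On the other side Mvk read 26.04, 25.7 and 25.1 CPM in ER-bound RNA, against 18.4, 19.3 and 20.4 CPM in whole-cell RNA, a log2 fold of 0.40. Pmvk read 24.9, 25.1 and 22.9 CPM in ER-bound RNA, against 20.8, 20.7 and 21.2 CPM in whole-cell RNA, a log2 fold of 0.22 that turned to -0.06 with the GC and length offset. Acaca read 123, 111 and 189.6 CPM in ER-bound RNA, against 136, 134 and 141 CPM in whole-cell RNA, and replicate 3 again stood high. It was not called, and without that library its log2 fold was -0.25.

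Per lysate the division was the same. The median log2 ratio of ER-bound to whole-cell CPM over the 17 ER membrane enzymes was 0.59, 0.51 and 0.48 in the 3 Lsg1 lysates and 0.54, 0.46 and 0.45 in the 3 scramble lysates. Over the 10 cytosolic or peroxisomal enzymes it was -0.26, -0.30 and -0.34 in the Lsg1 lysates and -0.21, -0.28 and -0.29 in the scramble lysates. Over all genes tested the same median lay between 0.01 and 0.03 in the 6 lysates. A pseudocount of 0.5 CPM was added for these ratios.

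The order of the genes followed their coding sequences in part. A median of 33.2% of the codons of the 17 ER membrane enzymes had U at the second base, against 29.0% for the 10 cytosolic or peroxisomal enzymes and 26.4% for all 14607 tested genes with a coding sequence. Across the 34 genes the share of such codons and the scramble log2 fold had a Spearman rho of 0.82, and within the 22 ER membrane enzymes and regulators a rho of 0.64. Across all 14607 genes rho was 0.20. Other measures ranked the genes differently. Non-overlapping stretches of 19 codons with at least 12 such codons were also counted. Their number had a rho of 0.69 across the 34 genes, 0.64 within the 22 and 0.30 across all genes. The most such codons in any 19, the count behind the printed stretches, had a rho of 0.56 across the 34 genes, 0.25 within the 22 and 0.17 across all genes. The number of codons had a rho of -0.28 across the 34, -0.29 within the 22 and -0.45 across all genes, farther from 0 there than the share of U codons. These are descriptions across genes of the same 6 libraries, and genes of a family such as Elovl and Fads share sequence. Ebp had the highest share at 40.4% and the highest log2 fold, Elovl1 was next in both with 39.1%, and Lss had the lowest share at 25.5%.

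**Figure D3:**
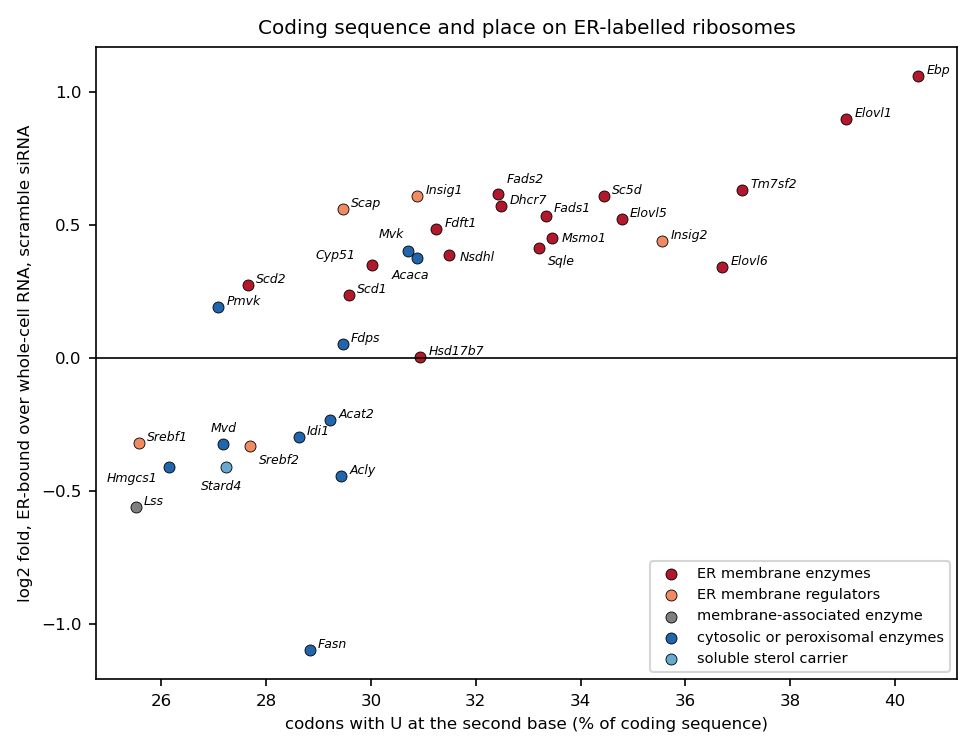
Percent of codons with U at the second base (horizontal axis) and log2 fold of ER-bound over whole-cell RNA with scramble siRNA (vertical axis) for the 34 genes, coloured by the class of the protein. Ebp and Elovl1 lie at the upper right, Lss, Srebf1 and Hmgcs1 at the lower left, and Fasn lies below the others at 28.8% of codons.

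A stretch with at least 12 such codons of 19, a proxy for a membrane-spanning segment, occurred in 17 of the 22 ER membrane enzymes and regulators and in none of the 10 cytosolic or peroxisomal enzymes, Lss or Stard4. Over all tested genes, the 3113 (21.3%) with such a stretch had a median log2 fold of 0.39, and 56.9% of them were called higher in scramble cells. The 11494 without it had a median of -0.02, and 27.6% of them were called higher. The 5 ER membrane members that fell short were Fdft1, with 9 such codons at most, and Cyp51, Scd2, Elovl5 and Elovl6, with 11 each, and all 5 were called higher on ER-labelled ribosomes. Fasn and Acly also reached 11. The first such stretch began at codon 31 of 230 in Ebp, 56 of 279 in Elovl1, 23 of 225 in Insig2 and 346 of 1276 in Scap. It began at codon 537 of 1134 in Srebf1 and 521 of 1130 in Srebf2, with 579 and 591 codons after it. A late start also occurred in genes that were not lower, at codon 288 of 362 in Nsdhl and 193 of 293 in Msmo1, both called higher, and at 234 of 362 in Hsd17b7, not called.

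With Lsg1 siRNA few of these mRNAs differed on ER-labelled ribosomes. Elovl5, Elovl6, Fads1 and Scap were higher and Acly was lower, so 5 of the 34 genes were called. Among all genes tested 2.63% were higher, 1.38% lower and 4.01% either way. With the filter at 2 CPM, 496 of 12578 genes were higher and 338 lower. By class, 3 of the 17 ER membrane enzymes and 1 of the 5 regulators were higher, and 1 of the 10 cytosolic or peroxisomal enzymes was lower. The log2 folds of 13 of the 17 ER membrane enzymes and 5 of the 5 regulators were positive, and those of 10 of the 10 cytosolic or peroxisomal enzymes were negative, while 9449 of all 17702 genes were positive. In whole-cell RNA, where none was called, the log2 folds of 9 of the 10 cytosolic or peroxisomal enzymes were negative as well, as were those of 9 of the 17 ER membrane enzymes and 23 of the 34 genes, with 9049 of all genes positive. Over the alternative settings, between 10 and 13 of the ER membrane enzymes, 4 or 5 of the regulators and between 0 and 2 of the cytosolic or peroxisomal enzymes were positive. The class medians were small, at a log2 fold of 0.04 for the ER membrane enzymes and -0.05 for the cytosolic or peroxisomal enzymes. With an offset for GC content and length the split over all genes was 392 higher and 373 lower, against 465 and 245 without it. The 8 embryonic stem cell markers moved in the same comparison, with 3 lower and 5 not called and summed levels of 7172 to 7426 CPM with Lsg1 siRNA, against 7629 to 8039 CPM with scramble siRNA. Their part in the values of the 34 genes was not tested.

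Elovl5 had the largest increase. It read 174, 166 and 156 CPM in ER-bound RNA with Lsg1 siRNA, against 145, 138 and 136 CPM with scramble siRNA. All 3 knockdown values lay above all 3 scramble values (log2 fold 0.25 ± 0.04 SE, edgeR with Benjamini-Hochberg adjusted p = 0.00208), and the call held with each library left out. Elovl6 read 295, 302 and 297 CPM with Lsg1 siRNA, against 268, 272 and 280.4 CPM with scramble siRNA. The groups did not overlap (log2 fold 0.12 ± 0.03 SE, edgeR with Benjamini-Hochberg adjusted p = 0.0153). Fads1 read 138, 129 and 124 CPM with Lsg1 siRNA, against 116, 119 and 117 CPM with scramble siRNA. It too was higher in all 3 same-numbered pairs (log2 fold 0.15 ± 0.04 SE, edgeR with Benjamini-Hochberg adjusted p = 0.0298).

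Scap read 64.5, 65.4 and 67 CPM in ER-bound RNA with Lsg1 siRNA, against 53.9, 58.02 and 60.7 CPM with scramble siRNA. It was higher without overlap (log2 fold 0.19 ± 0.04 SE, edgeR with Benjamini-Hochberg adjusted p = 0.0185). Acly read 322, 329 and 336 CPM with Lsg1 siRNA, against 351, 356 and 367 CPM with scramble siRNA. It was lower in all 3 pairs (log2 fold -0.12 ± 0.03 SE, edgeR with Benjamini-Hochberg adjusted p = 0.0288). Idi1 read 19.8, 19.4 and 18.6 CPM with Lsg1 siRNA, against 21.1, 21.98 and 21.4 CPM with scramble siRNA, and was not called (log2 fold -0.16 ± 0.04 SE, edgeR with Benjamini-Hochberg adjusted p = 0.0578). With the replicate number as a block over all 12 libraries, Idi1 was called lower (edgeR with Benjamini-Hochberg adjusted p = 0.0462). Over all genes 749 were higher and 429 lower with this block. The block gives ER-bound and whole-cell libraries of a number the same effect. Whole-cell libraries did not deviate together in replicate 2 (correlation 0.01).

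The other calls were lost with some single libraries left out, and those of Elovl6 and Fads1 also with no low-count filter (log2 folds 0.10 and 0.13). Some of these libraries are whole-cell, which enter this comparison only through the scaling, the filter and the shared estimate of the spread. With whole-cell replicate 2 of either siRNA left out, Elovl6 kept a log2 fold of 0.11 and Fads1 one of 0.14. Of the 7 ER membrane enzymes of fatty acid elongation and desaturation, Elovl1, Fads2, Scd1 and Scd2 were not called. Scap was not called with any 1 of the 3 ER-bound Lsg1 libraries or ER-bound scramble replicate 1 or 2 left out, at log2 folds of 0.14 to 0.19. Elovl6 lost its call with any 1 of the 3 ER-bound Lsg1 libraries, ER-bound scramble replicate 1 or 2, whole-cell Lsg1 replicate 2 or whole-cell scramble replicate 2 left out, at log2 folds of 0.10 to 0.12. Fads1 lost its call with any 1 library left out except ER-bound Lsg1 replicate 3 and whole-cell Lsg1 replicate 3, at log2 folds of 0.10 to 0.15. Acly lost its call without ER-bound Lsg1 replicate 1 or 2, ER-bound scramble replicate 2 or 3, or whole-cell scramble replicate 2, at log2 folds of -0.14 to -0.11.

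**Figure D4:**
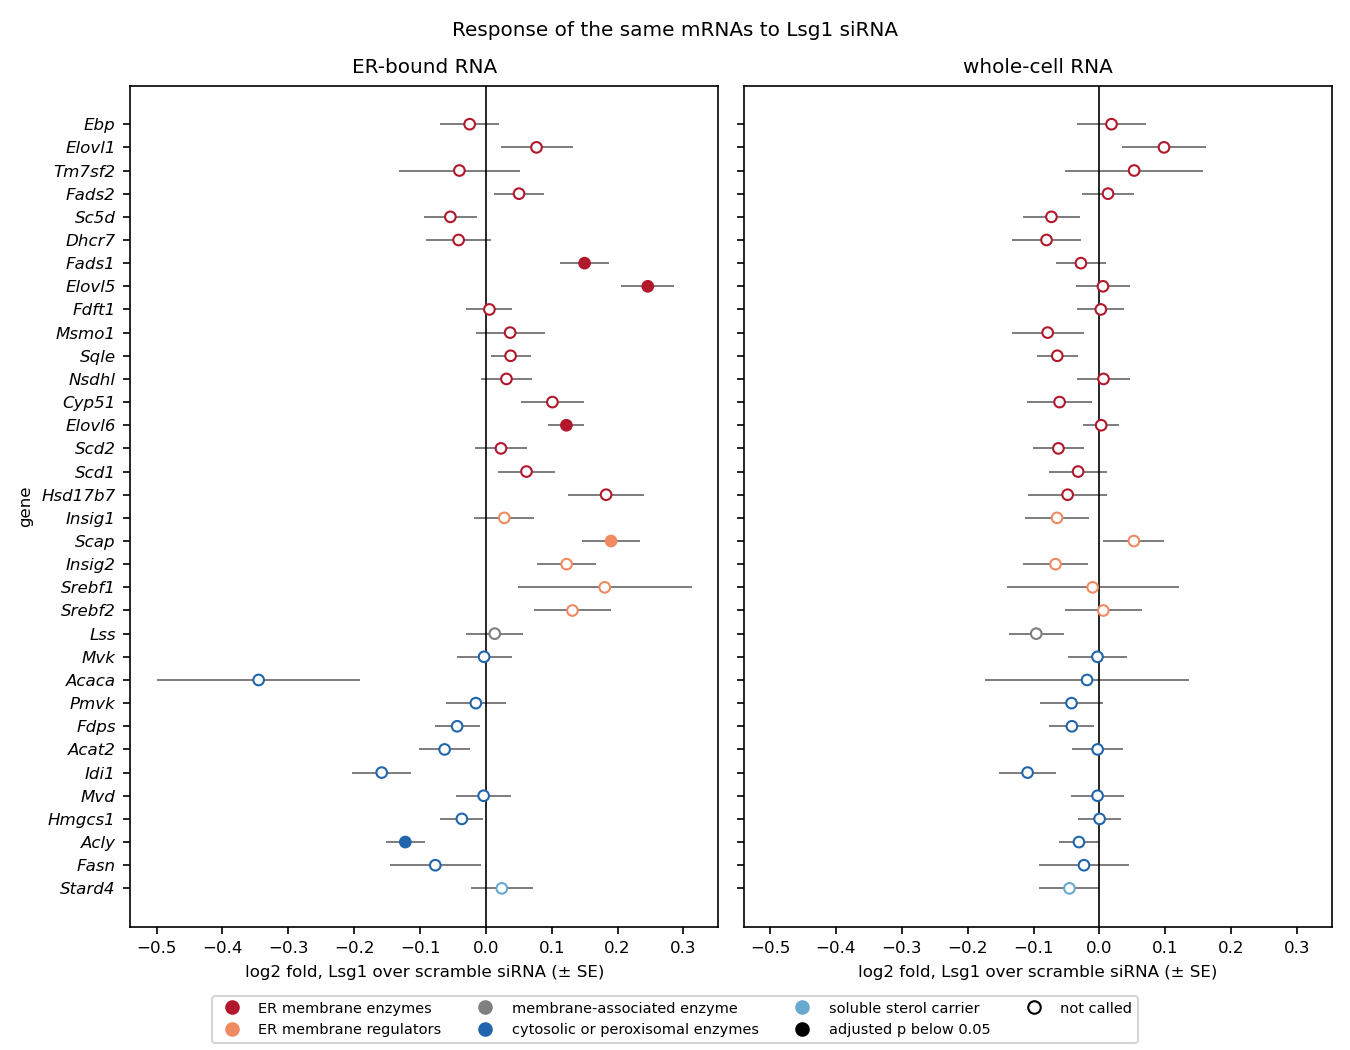
Log2 fold of Lsg1 over scramble siRNA (horizontal axes, ± SE) for the 34 genes in ER-bound RNA on the left and whole-cell RNA on the right, with filled points for genes called. Elovl5, Scap, Fads1 and Elovl6 are filled to the right of 0 and Acly to the left in ER-bound RNA, and no point is filled in whole-cell RNA.

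In whole-cell RNA none of the 34 genes was called between the siRNAs, and neither was any of the 17702 genes tested (0%). These include the siRNA's target Lsg1, which had a log2 fold of -0.55 ± 0.10 SE there (edgeR with Benjamini-Hochberg adjusted p = 0.245). By edgeR, 2 of the 34 and 731 of all genes had an unadjusted p below 0.05. DESeq2 called 5 genes and limma-voom 0 over all genes, none of them among the 34. Idi1 read 24.6, 23.9 and 25.1 CPM with Lsg1 siRNA, against 25.1, 26.7 and 27.4 CPM with scramble siRNA, a log2 fold of -0.11 ± 0.04 SE. Lss read 65.5, 69.1 and 68.3 CPM with Lsg1 siRNA, against 69.5, 72.04 and 75.3 CPM with scramble siRNA, a log2 fold of -0.10 ± 0.04 SE. Knockdown values lay below scramble values for Lss and met them at 25.1 CPM for Idi1, and neither passed the adjustment (edgeR with Benjamini-Hochberg adjusted p = 1.00 for both).

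Sqle read 96.5, 97.4 and 97.7 CPM in whole-cell RNA with Lsg1 siRNA, against 98.8, 101 and 105 CPM with scramble siRNA, and Sc5d read 25.2, 24.7 and 25.2 CPM with Lsg1 siRNA, against 26.7, 27.1 and 25.3 CPM with scramble siRNA. Their log2 folds were -0.06 and -0.07. In ER-bound RNA Sqle read 141, 136 and 139 CPM with Lsg1 siRNA, against 135, 134 and 136 CPM with scramble siRNA, and was not called there either. Elovl5 and Elovl6, higher on ER-labelled ribosomes, had whole-cell log2 folds of 0.01 ± 0.04 SE and 0.00 ± 0.03 SE. Hmgcs1 and Insig1 had whole-cell log2 folds of 0.00 ± 0.03 SE and -0.06 ± 0.05 SE. Over all 34 genes the median whole-cell log2 fold was -0.03 and 23 were negative, beside 8653 of all 17702 genes.

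The interaction asks whether the ER enrichment itself differed between the siRNAs. None of the 34 genes was called, beside 0.0113% higher, 0.0113% lower and 0.0226% either way among all genes tested. By edgeR, 9 of the 34 and 1219 of all genes had an unadjusted p below 0.05, and limma-voom called none of the 34. DESeq2 called Elovl5 alone among them. Elovl5 had an interaction log2 value of 0.24 ± 0.06 SE, from an enrichment of 0.76 with Lsg1 siRNA and 0.52 with scramble siRNA (edgeR with Benjamini-Hochberg adjusted p = 0.389). In whole-cell RNA Elovl5 read 101, 95.1 and 96.6 CPM with Lsg1 siRNA, against 95.97, 100.4 and 94.9 CPM with scramble siRNA. The whole-cell groups overlapped. Fads1 had an interaction value of 0.18 ± 0.05 SE, from 0.71 with Lsg1 siRNA and 0.53 with scramble siRNA. Its whole-cell values were 80.6, 78.3 and 80.4 CPM with Lsg1 siRNA, against 82.6, 81.5 and 79.8 CPM with scramble siRNA. For Elovl6 they were 218, 216 and 215 CPM with Lsg1 siRNA, against 213, 215 and 219.8 CPM with scramble siRNA. Elovl6 had an interaction value of 0.12, Insig2 0.19 and Hsd17b7 0.23, and none of these passed the adjustment. The interaction value was positive for 14 of the 17 ER membrane enzymes and negative for 8 of the 10 cytosolic or peroxisomal enzymes, with 9150 of all 17702 genes positive. Over the alternative settings these counts were 11 to 15 of the ER membrane enzymes positive and 6 to 10 of the cytosolic or peroxisomal enzymes negative.

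Other genes of the same pathways were taken from 6 lists. Of 14 partners of ER fatty acid elongation and desaturation, 10 were higher and 1 lower in ER-bound RNA of scramble cells, beside 29.8% higher and 29.1% lower among all genes tested, with a median log2 fold of 0.66. The dehydratase Hacd2 (1.13), the enoyl reductase Tecr (0.98) and the ketoacyl reductase Hsd17b12 (0.79), which complete each elongation cycle begun by an Elovl enzyme, had the smallest p. Of 19 genes of sterol transport and regulation, 14 were higher and 1 lower, with a median log2 fold of 0.33, led by the lysosomal sterol carrier Npc2 (1.15), the late endosome sterol transporter Stard3 (0.78) and Erlin2 (0.61), an ER membrane protein of sterol-regulated degradation. Of 13 genes of the isoprenoid branch, 6 were higher and 3 lower, led by the ER membrane proteins Srd5a3 (1.00), the polyprenol reductase, and the CAAX proteases Rce1 (0.84) and Zmpste24 (0.45).

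The lists of soluble or mixed proteins were closer to these shares over all genes. Of 7 genes of cytosolic acetyl-CoA and fatty acid supply 2 were higher and 2 lower, with log2 folds of 0.66 for the second acetyl-CoA carboxylase Acacb, 0.24 for its regulator Mid1ip1 and -0.15 for the mitochondrial citrate carrier Slc25a1. Of 5 long-chain acyl-CoA synthetases 2 were higher and 2 lower, with 0.46 for Acsl6, 0.25 for Acsl5 and -0.27 for Acsl4. Of 6 genes of mitochondrial fatty acid synthesis 2 were higher and 2 lower, with 0.13 for the reductase Mecr, -0.17 for the transferase Mcat and -0.23 for the synthase Oxsm. Between the siRNAs on ER-labelled ribosomes, 4 of the 64 genes of the 6 lists were called, beside 4.01% of all genes tested. The ER membrane protein Erlin1, a partner of Erlin2, was higher at a log2 fold of 0.18, Hacd2 at 0.18 and Zmpste24 at 0.15, and Mcat was lower at -0.15. None of the genes on these lists was called in whole-cell RNA.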

How the data were processed

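Poly(A) RNA of 12 libraries, 3 biological replicates in each of 4 groups per the labels, was sequenced as read pairs. The authors deposited raw read counts per Ensembl gene, and the submitters' processing notes name STAR 2.7.9a, HTSeq 0.11.2, DESeq2 (no version) and GRCm39. Neither the counting's strand setting nor the release of its annotation is given in the sources used here. Summary lines of the count files, kept out of library sizes, came to 2.65 to 5.26% of reads with no feature, 0.970 to 1.16% ambiguous and 6.09 to 8.23% aligned more than once, as shares of assigned plus summary reads.

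Names, GC content, transcript lengths and coding sequences came from GENCODE M21 on GRCm38, matched by gene ID without its version (52083 of 55416 IDs, 94.0%). The 12 libraries entered 1 fit of 4 group means in edgeR 4.0.16 under R 4.3.3, with filterByExpr (17702 genes), TMM, a quasi-likelihood F test and Benjamini-Hochberg adjustment at 0.05 over all genes in each of 5 comparisons (4.42% biological coefficient of variation, 8 residual degrees of freedom). CPM values use the same scaling. The fit was tested on simulated counts. Alternatives were DESeq2 1.42.0, limma-voom (limma 3.58.1), other scalings and filters, a GC and length offset, a replicate block, each library left out, and both libraries that stand apart left out. Figures used Python 3.11.15 and matplotlib 3.10.9.

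The members, classes, lists and tests were chosen with earlier results of these data known. Per-library values are given for the 4 genes with the smallest p in each enzyme class and siRNA comparison, the regulators, Lss, Stard4 and genes called against their class, and 3 genes are named from each other list. The planned hydropathy scan was not run, since no protein table was used here, and the codon measure took its place after the counts had been seen. Replicate numbers were taken as pairs where same-numbered libraries deviated together with a correlation above 0.1 in all 3 pairs. This held for the ER-bound libraries (0.39, 0.15 and 0.33) and not for the whole-cell libraries (0.31, 0.01 and 0.34). The main fit of group means used neither these pairs nor the lysate that ER-bound and whole-cell RNA share. Only the replicate block did, by replicate number over all 12 libraries between the siRNAs and by lysate in the other comparisons.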

Additional observations from a re-analysis of the deposited data

How the results depend on the processing

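The division between ER membrane enzymes and cytosolic or peroxisomal enzymes kept its direction under every alternative tried. The median log2 fold of the ER membrane enzymes was 0.41 with the GC and length offset and 0.56 with library totals alone in scramble cells, and 0.63 with library totals in Lsg1 cells. The median of the cytosolic or peroxisomal enzymes was -0.35 with the offset, -0.19 with library totals and -0.31 to -0.26 with single libraries left out in scramble cells, and -0.41 and -0.22 in Lsg1 cells with the offset and library totals. Signs turned for Pmvk, called higher with both siRNAs, and for Fdps, Hsd17b7 and Acaca, which lay closer to 0 in the comparisons concerned. With the offset Pmvk had log2 folds of -0.092 in scramble cells and -0.063 in Lsg1 cells, neither of them called, and Fdps was called lower, at -0.098 and -0.10, while with library totals it was called higher, at 0.13 and 0.14. With single libraries left out, Fdps lay between -0.0014 and 0.070 in scramble cells. Hsd17b7 in scramble cells was -0.013 with DESeq2's size factors and with its test, -0.023 without both libraries that stand apart, and -0.028 to 0.018 with single libraries left out. Acaca in Lsg1 cells was -0.25 without ER-bound Lsg1 replicate 3, 0.18 without replicate 2, and was called higher, at 0.43, with the offset. The cause of these shifts was not tested.

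Between the siRNAs in ER-bound RNA, 161 to 463 genes were higher and 117 to 391 lower with single libraries left out, 749 and 429 with the replicate block, 307 higher without both libraries that stand apart, and 373 lower with the offset. Of the 34 genes, 1 to 4 were higher and 0 to 2 lower with single libraries left out, and 2 (Elovl5 and Scap) higher and 0 lower without both libraries that stand apart. With the offset, the filter at 2 CPM, no filter or the replicate block, 2 were lower. In whole-cell RNA the genes higher and lower were 4 and 1 with DESeq2, 24 and 2 with no filter, 4 and 1 with the replicate block, 3 and 1 without both libraries that stand apart, 0 to 2 and 0 to 1 with single libraries left out, and 1 higher with the offset. For the interaction they were 13 and 5 with DESeq2, 19 and 40 with no filter, and 2 to 5 and 1 to 3 with single libraries left out, with 7 lower under the replicate block. Of the 34 genes DESeq2 called 1 higher and the fit with no filter 1 lower. The replicate block changed no call of the 34 genes other than Idi1 in ER-bound RNA. In whole-cell RNA same-numbered libraries deviated together in replicates 1 and 3 (correlations 0.31 and 0.34) but not in replicate 2 (0.01).

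The hydropathy threshold planned for proteins was not run. With at least 11 codons in place of 12 the stretch occurred in 16 ER membrane enzymes, 5 regulators and 2 cytosolic enzymes, and with at least 13 in 8, 4 and 0. The lowest count behind any value of the 34 genes was 234 reads. CPM values show shares of a library, not molecules per cell.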

Other observations

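Carboxylases that carry biotin were looked at after the values of Acaca had been seen. Acacb, the second acetyl-CoA carboxylase, read 38.9, 39.04 and 49.6 CPM in ER-bound Lsg1 libraries, against 30.04, 30.5 and 30.1 CPM in whole-cell Lsg1 libraries. In scramble cells it read 45.5, 46.02 and 54.7 CPM in ER-bound RNA, against 30.9, 31.3 and 29.99 CPM in whole-cell RNA. Like Acaca it was highest in ER-bound replicate 3 of both siRNAs. Among 7448 genes with a mean above 20 CPM, Acaca ranked 5 and Acacb 32 from the highest in the deviation of ER-bound replicate 3 from the other replicates over both siRNAs. The mitochondrial carboxylases were lower in ER-bound RNA, with scramble log2 folds of -0.29 for pyruvate carboxylase (Pcx), -0.45 for the propionyl-CoA carboxylase subunit Pcca and -0.21 for the methylcrotonyl-CoA carboxylase subunit Mccc1 (edgeR with Benjamini-Hochberg adjusted p = 5.40e-05, 5.24e-08 and 3.64e-04, in that order).

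Summed over the class, the ER membrane enzymes took up 2184 to 2386 CPM of the ER-bound Lsg1 libraries and 1609 to 1674 CPM of the whole-cell Lsg1 libraries. In scramble cells they took up 2165.9 to 2209 CPM of the ER-bound libraries and 1671 to 1692 CPM of the whole-cell libraries. The cytosolic or peroxisomal enzymes took up 1048 to 1145 CPM of the ER-bound Lsg1 libraries and 1567 to 1680 CPM of the whole-cell Lsg1 libraries. In scramble cells they took up 1097 to 1260 CPM of the ER-bound libraries and 1593 to 1690 CPM of the whole-cell libraries. The ER membrane enzymes had the higher sum in all 6 ER-bound libraries. In whole-cell RNA the ranges of the classes overlapped. There the ER membrane enzymes had the higher sum in every library except Lsg1 replicate 3, at 1640 CPM against 1680 CPM.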
